A study of Homo sapiens with 2 samples.

Results

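Semaphorins and ephrins are cell-surface or secreted guidance ligands, and plexins and Eph receptors are the membrane proteins that read them. N6-methyladenosine (m6A) peaks in the genes of these 4 families were described in HCCLM3 cells, an established line from a human hepatocellular carcinoma. The members were the protein-coding genes whose symbols name a semaphorin of classes 3 to 7, a plexin, an Eph receptor or an ephrin of type A or B. They numbered 51 of 20037 protein-coding genes, namely 20 semaphorins, 9 plexins, 14 Eph receptors and 8 ephrins. A peak was given to a member when its summit lay within the gene's RefSeq span on hg38. The choice of genes used symbols alone and no measured value.

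The cells were wild type (WT), and the labels name no treatment. The series concerns condensates of CRTC2, a coactivator of CREB, with YTHDF2, an m6A-binding protein, in hepatocarcinogenesis and lenvatinib resistance. There was 1 m6A-RIP library, from RNA recovered with an m6A antibody, and 1 input library, from the RNA before recovery. Neither was replicated, so the values describe this pair of libraries and no difference has a replicate check. HCCLM3 is a single line, and the labels give it a human liver cell type. Among hepatocyte markers, APOB, HNF4A and FGB held a peak, and ALB, APOA1, TTR and SERPINA1 held none. None of the 4 stromal or 3 immune markers held a peak, against 1 of 4 endothelial (PECAM1), 1 of 4 neuronal (MAP2) and 2 of 4 epithelial markers (KRT8 and CDH1). The KRT8 and CDH1 peaks had q of 0.885 and 1 on 7 and 3 fragments, so at q under 0.05 no epithelial marker held a peak, while PECAM1 and MAP2 did. A peak needs both RNA and recovery by the antibody, so a gene without a peak is not shown to be unexpressed.

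As background, m6A is written mostly by the METTL3 and METTL14 methyltransferase on adenosines within short motifs with a GGAC core, and in mRNA it is densest near stop codons and in 3' UTRs. Class 3 semaphorins are secreted and act through plexin A receptors with neuropilin coreceptors, whereas classes 4 to 6 span the membrane and SEMA7A is held by a lipid anchor. Plexins carry a cytoplasmic domain that switches off small GTPases such as Rap1, and so loosen adhesion and reshape the actin skeleton. Eph receptors are receptor tyrosine kinases. Type A ephrins are lipid-anchored and type B ephrins span the membrane, and contact between cells sends signals both ways. In epithelia and tumours these families are known for sorting cells, migration and vessel growth.

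The sequences shown here are the transcript starts that lay under a member peak, since these are the places where RefSeq letters could be set beside a peak. RefSeq start windows (250 bases before to 50 after a start, GRCh38.p14) were found for 46 members. A peak covered part of such a window in 4 of them (8.70%), against 618 of 15843 protein-coding genes with a window (3.90%). For EPHA2, EPHB3 and PLXNA1, the peak's 5′ edge lay within 10 bases of the annotated start, which held for 3 of 46 members (6.52%) and 83 of 15843 genes (0.524%). The members' share rests on these 3 genes and the difference was not tested. The EPHB3 peak had a q of 0.105, and the deposited table labels the PLXNA1 peak distal intergenic. The EPHA2 and EPHB3 peaks began 8 and 4 bases inside the transcript and the PLXNA1 peak 1 base before it. The EFNA5 peak instead covered all 300 bases of the window and ran 948 bases upstream of the start. The first 30 bases of each transcript follow, 5′ to 3′ on the gene's strand, with the GGAC motif in capitals, and then the 250 bases before the EFNA5 start.
EFNA5 (chr5:107670908-107670937, minus strand): acctcttcccccgccctcgccgccgccacc
EPHA2 (chr1:16156040-16156069, minus strand): attaaGGACtcggggcaggaggggcagaag
EPHB3 (chr3:184561785-184561814, plus strand): agcagaagtgagtacgtgagcggcgcagca
PLXNA1 (chr3:126983115-126983144, plus strand): attcatgctgggcatcggctgcgcggccac
EFNA5 before its start (chr5:107670938-107671187, minus strand): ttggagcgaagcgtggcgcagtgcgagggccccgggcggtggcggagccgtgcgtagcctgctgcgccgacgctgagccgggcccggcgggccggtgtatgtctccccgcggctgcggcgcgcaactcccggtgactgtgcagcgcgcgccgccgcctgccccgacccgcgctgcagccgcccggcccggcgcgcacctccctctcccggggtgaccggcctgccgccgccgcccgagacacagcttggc

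EPHA2 alone of the 4 held GGAC in its first 30 bases, and there it was part of GGACT. All of the motif except its last letter lay in the 8 bases outside the peak. On the sense strand, 11% of 35116 RefSeq start windows held GGAC in their first 30 transcribed bases and 2.70% held GGACT. EPHB3 had a GGAC further on, within its first 50 bases, as did 18.9% of windows. The stretch before the EFNA5 start held GGAC on neither strand, whereas 82.0% of windows held it on at least 1 strand of the same 250 bases. These are matches of letters and not measured methylation sites. The peaks themselves could not be read as sequence, since no genome was used here.

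Of the 51 members, 30 held at least 1 peak (58.8%, 95% Wilson interval 45.2 to 71.2), beside 49.3% of all protein-coding genes. With peaks of q under 0.05 the count was 21 (41.2%, 28.8 to 54.8), beside 39.0%. With q under 1e-5 it was 18 (35.3%, 23.6 to 49.0) beside 28.5%, and with a fold over input of at least 4 it was 17 (33.3%, 22.0 to 47.0) beside 30.9%. The q-value and the fold are those of the authors' peak caller. The fold was taken as scaled RIP fragments over an input level at the summit, with 1 added to each. That level was worked back from the fold and p-value. It is often a fraction, such as 0.246, so it is not a count of input fragments at the summit. Each of these backgrounds lies inside the members' interval. Members are long genes, with a median span of 44.7 kb against 24.1 kb, and longer genes held peaks more often. Weighted to the members' span classes, the background was 57.5%, 44.9%, 33.3% and 37.4% in the same order, so the members differed from it by 1.36 points for any peak and by -3.76 points at q under 0.05. The unweighted difference for any peak, 9.51 points, turned to -0.0916 when peaks needed at least 10 RIP fragments.

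The families differed in how many of their genes held peaks, without a test of the difference. Plexins held a peak in 7 of 9 genes and ephrins in 6 of 8, against 13 of 20 semaphorins and 4 of 14 Eph receptors. At q under 0.05 the counts were 6 plexins, 5 ephrins, 6 semaphorins and 4 Eph receptors. So 7 of the 13 semaphorins with a peak had none of q under 0.05, while each of the 4 Eph receptors with a peak had at least 1. Within the ephrins, all 5 type A genes held a peak and 1 of 3 type B genes did. Within the Eph receptors the split ran the other way, with 1 of 9 type A receptors (EPHA2) and 3 of 5 type B receptors (EPHB2, EPHB3 and EPHB6). These subgroups are small and their intervals wide, from 1.99 to 43.5% for type A receptors and from 23.1 to 88.2% for type B.

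**Figure D1:**
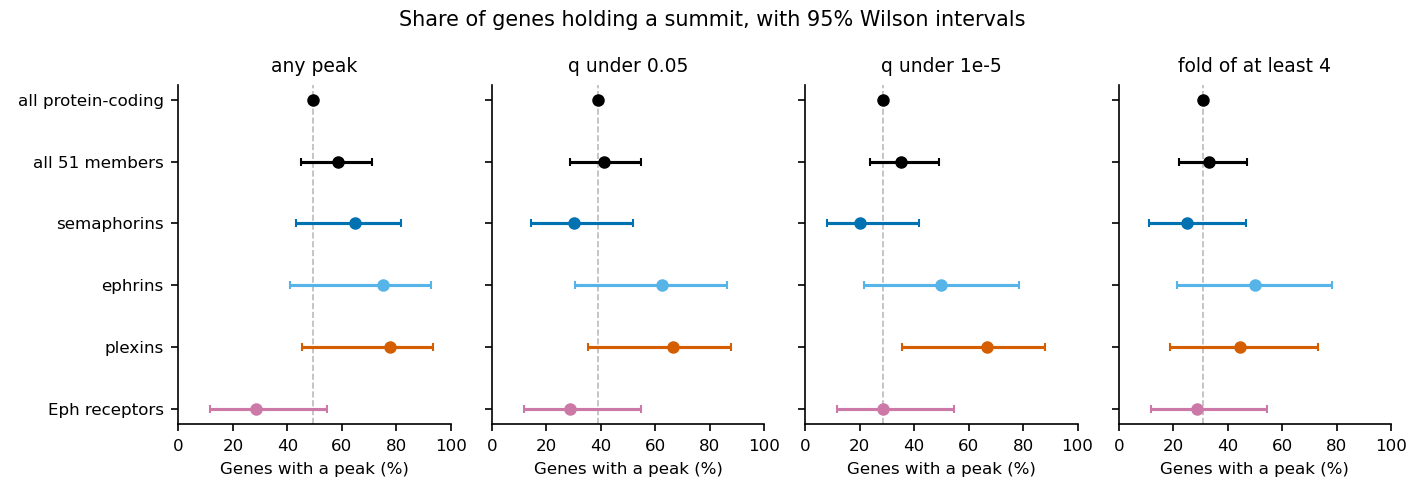
Share of genes with a summit in their span (x axis, percent) for all protein-coding genes, the 51 members and each family, at 4 thresholds on the peaks (panels). Points are shares, bars are 95% Wilson intervals and the dashed line is the share of all protein-coding genes; Eph receptors stay at 28.6% in every panel, while semaphorins go from 65.0% with any peak to 20% at q under 1e-5.

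The 30 genes held 85 peaks, of which 54 had q under 0.05 (63.5%, beside 53.7% of 30222 peaks in protein-coding genes). The median fold was 3.78, against 3.38 over all those peaks, and the median number of RIP fragments at a summit was 20, against 12. Fragment numbers were recovered from the deposited fold and p-value, at the largest scaling of the libraries that fitted. Fold intervals below are exact 95% Poisson intervals on these numbers, with the input held fixed. Intervals cover counting error only. There were 12 member peaks on at most 3 fragments and 16 with a q of 1. Peaks were unevenly spread: 16 members held exactly 1, while 6 members with 5 or more held 46. The median over the 30 members of each gene's highest fold was 4.49 (3.38 to 5.87), against 4.73 over all protein-coding genes with a peak.

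**Figure D2:**
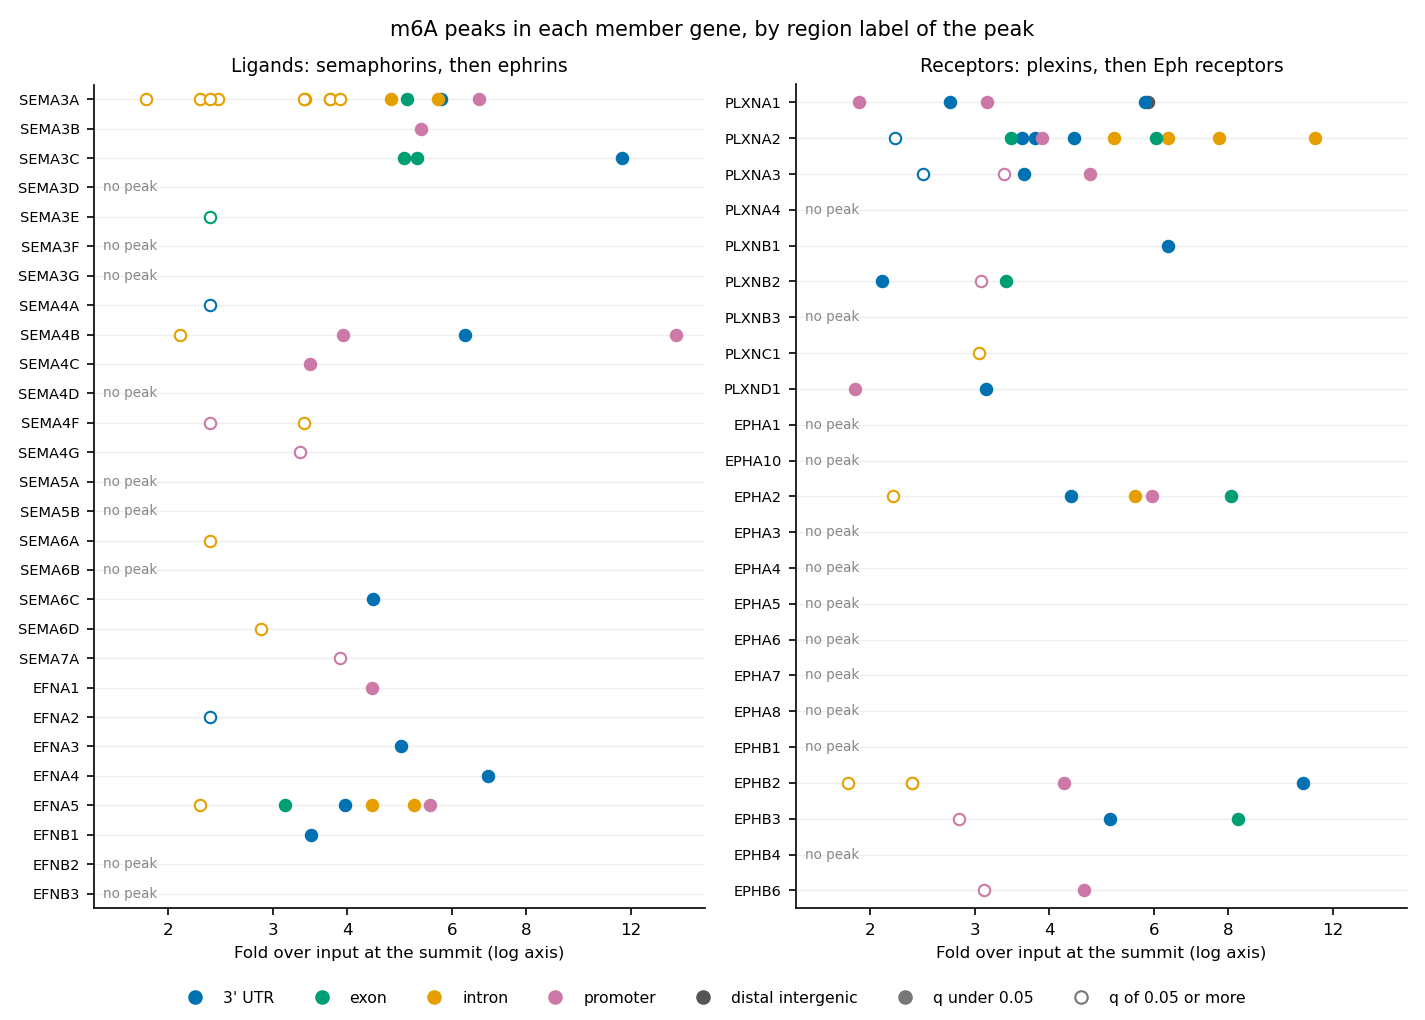
Fold over input at the summit (log axis) of all 85 member peaks, one row a gene, ligands on the left and receptors on the right. Colours give the deposited region label, filled points have q under 0.05 and open points do not; SEMA4B at 14.3 and SEMA3C at 11.6 lead the ligands, PLXNA2 at 11.2 and EPHB2 at 10.7 the receptors, and 21 genes hold no peak.

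Among the secreted class 3 semaphorins, 4 of 7 held a peak and 3 held one of q under 0.05. SEMA3C, a ligand linked to migration and heart outflow development, carried the most significant member peak, in its 3' UTR at chr7:80744729-80745274. There 129 RIP fragments stood against an input level of 6.22 fragments, a fold of 11.6 (9.71 to 13.8) with a q of 6.59e-56. Only 21 of the 30222 peaks in protein-coding genes had a lower q. Exons 18 and 17 of 19 of the same gene held 2 more peaks, with folds of 4.98 (45 fragments) and 5.25 (23 fragments), so all 3 of its peaks lay in the last 10% of its span.

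SEMA3A, the classical growth cone repellent, held the most peaks of any member, 14 over a span of 537 kb, of which 5 had q under 0.05. Its highest fold was 6.67 (4.83 to 8.99, 40 RIP fragments against an input level of 3) at chr7:84194356-84194796, labelled promoter although 298121 bases from the gene's 5′ end. The deepest peak was in the 3' UTR, with 115 fragments and a fold of 5.75 (4.76 to 6.89). Exon 16 of 17 had a fold of 5.04 and introns 13 and 12 of 16 had folds of 5.68 and 4.73. The other 9 peaks were all intronic, with folds of 1.83 to 3.89 on 2 to 9 fragments. SEMA3A thus supplied 11 of the 28 intronic member peaks, 4 of them within intron 12.

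SEMA3B, a semaphorin on the short arm of chromosome 3 known as a candidate tumour suppressor, had 1 peak at chr3:50276564-50277268. Its fold was 5.32 (3.36 to 8.08) on 19 RIP fragments over an input level of 1.48. The peak carried a promoter label, yet its summit lay 756 bases from the 3′ end of the gene. SEMA3E, which binds plexin D1 without a neuropilin, had 1 peak on 3 fragments in its last exon (fold 2.35). SEMA3D, SEMA3F and SEMA3G held no peak.

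The class 4 semaphorins, membrane ligands of plexin B receptors among others, held a peak in 5 of 6 genes, but only SEMA4B and SEMA4C held one of q under 0.05. SEMA4B had the highest fold of all members, 14.3 (10.2 to 19.6), at chr15:90188930-90189434, 4269 bases into the gene and labelled promoter. It rested on 36 RIP fragments against an input level of 0.681, and 100 of 30222 peaks had a higher fold. Its 3' UTR peak was deeper, with 126 RIP fragments against 12 and a fold of 6.30 (5.26 to 7.48), and it had the lower q, 1.86e-34 against 1.19e-24. A further promoter-labelled peak had a fold of 3.93 on 10 fragments, and an intron 1 peak, 2.09 on 18, did not pass q under 0.05.

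SEMA4C, a ligand of plexin B2, had 1 peak at chr2:96860258-96861191, with a fold of 3.46 (2.21 to 5.20) on 20 fragments over an input level of 3. It too was labelled promoter and lay 829 bases from the gene's 3′ end. SEMA4A had a 3' UTR peak of fold 2.35 on 3 fragments. SEMA4F had 2 weak peaks, the higher of fold 3.38 on 5 fragments, and SEMA4G had 1 of fold 3.33 on 14. SEMA4D, the ligand of plexin B1, had none.

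Of the 7 genes of classes 5, 6 and 7, SEMA6C alone held a peak of q under 0.05. It lay in the 3' UTR at chr1:151131661-151132543 and had a fold of 4.41 (2.25 to 8.23), on only 7 RIP fragments over an input level of 0.246. SEMA7A, a lipid-anchored ligand of plexin C1, had a peak of fold 3.89 on 6 fragments with a q of 0.0537. SEMA6D had an intron peak of fold 2.86 on 4 fragments. SEMA6A had a peak of fold 2.35 on 3 fragments, labelled intron 2 of 2. The antisense gene SEMA6A-AS1 shares that summit and is the gene named in the deposited table. The label may thus not refer to an intron of SEMA6A. SEMA5A, SEMA5B and SEMA6B held none.

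Ephrin genes are short, with a median span of 10.9 kb, and their peaks stood over a higher input level than those of the semaphorins. The median input level at ephrin peaks was 4.44 fragments, against 0.488 at semaphorin peaks, 1 at Eph receptor peaks and 4 at plexin peaks. The genes of 3 type A ephrins lie close together on chromosome 1. There EFNA4 had a 3' UTR peak at chr1:155069000-155069621 with 60 RIP fragments against an input level of 4.74 and a fold of 6.89 (5.30 to 8.81). Readthrough genes with ADAM15 and EFNA3 also cover that summit. EFNA3 had a 3' UTR peak at chr1:155087095-155087577 with a fold of 4.92 (2.58 to 8.92) on 8 fragments over 0.246. EFNA1, the main ligand of EPHA2, had a peak at chr1:155134281-155134646 with a fold of 4.40 (3.21 to 5.89) on 42 fragments over 5.36. The EFNA1 peak was labelled promoter, 438 bases from the end of the gene. So each of the 3 genes had 1 peak, in the last 10% of its span.

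EFNA5, which can bind type A receptors and EPHB2, spans 294 kb and held 6 peaks, 5 of q under 0.05. The strongest was the start peak at chr5:107670712-107671885 whose letters are given above, with 96 RIP fragments against 10.4 and a fold of 5.51 (4.48 to 6.71). Intron 1 held peaks of fold 5.17 (79 fragments), 4.40 (19) and 2.26 (3), exon 2 of 5 had 3.14 (18), and the 3' UTR had 3.96 (32). EFNA2 had a 3' UTR peak on 3 fragments, with a fold of 2.35. EFNB1, the X-linked ligand of EPHB receptors, was the sole type B ephrin with a peak, in its 3' UTR at chrX:68840427-68840910, and its 69 RIP fragments stood against an input level of 12 (fold 3.48, 2.73 to 4.39). EFNB2, the ligand of EPHB4, and EFNB3 held none.

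On the receptor side, the type A plexins, which transmit class 3 and class 6 signals, held 20 of the 27 plexin peaks. PLXNA2 had 11, of which 10 had q under 0.05, and its summits together held 587 RIP fragments, the most of any member. The highest fold lay in intron 3 of 31 at chr1:208149018-208149548, 11.2 (8.44 to 14.6), with 52 fragments over an input level of 2.07. Another peak in intron 3 had a fold of 6.33 and one in intron 1 of 7.72 (50 fragments). Deeper peaks lay elsewhere in the gene. Exon 2 of 32 had 102 RIP fragments against 10 and a fold of 6.04 (4.94 to 7.31), with a q of 2.05e-27, and a second peak in that exon had 3.45. A non-coding gene, LOC105372884, also covers the exon 2 summits. The peak next to the start had 132 fragments and a fold of 3.89, and 4 peaks in the 3' UTR had folds of 2.20 to 4.40.

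PLXNA1, a receptor of SEMA3A with NRP1, held 5 peaks, all of q under 0.05. The highest fold, 5.87 (3.42 to 9.59, 13 RIP fragments over an input level of 0.592), was that of the start peak at chr3:126983114-126983419, which the deposited table labels distal intergenic although it lies within the RefSeq span. The 3' UTR peak was close in fold, 5.80 (4.81 to 6.94), on far more RIP fragments, 116 over an input level of 12, and had a q of 7.55e-30. Its other peaks had folds of 1.91 to 3.14 on 45 to 79 fragments. PLXNA3, on the X chromosome, held 4 peaks, 2 of q under 0.05, and its highest fold was 4.69 (3.33 to 6.45, 35 fragments over 4) at chrX:154460271-154460772, labelled promoter. Its 3' UTR peak of q under 0.05 had a fold of 3.63. PLXNA4 held none.

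Among the other plexins, PLXNB1, the receptor of SEMA4D, had 1 peak in its 3' UTR at chr3:48403695-48404240, with a fold of 6.33 (4.05 to 9.53) on 20 RIP fragments over an input level of 1.18. PLXNB2 and PLXND1 had high input and low folds. In PLXNB2, exon 3 of 37 had a fold of 3.38 (2.83 to 4) at chr22:50289490-50290476 on 130 fragments over 24.0, and the 3' UTR one of 2.09 on 70 over 21.0. Another peak, near a start, did not pass q under 0.05. PLXND1, an endothelial guidance receptor, had 140 RIP fragments, the most of any member peak, over an input level of 28.0 in its 3' UTR at chr3:129555056-129556526 (fold 3.13, 2.64 to 3.69). Its start peak had 1.88 on 113 over 38.0. PLXNC1 had 1 peak of fold 3.05 on 6 fragments in intron 24 of 30, where the gene CEP83 also lies, and PLXNB3 had none.

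**Figure D3:**
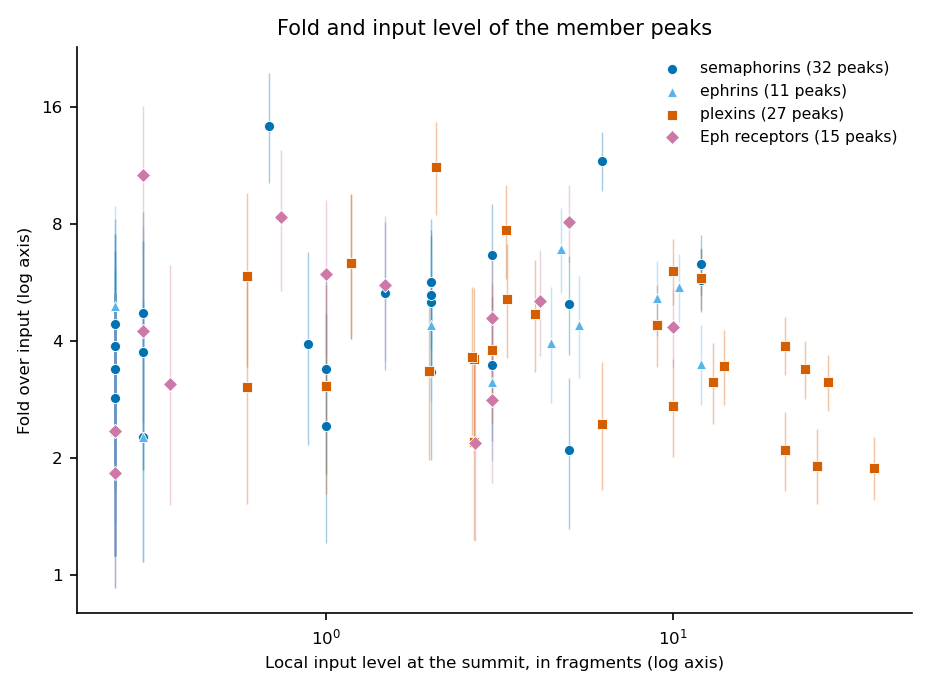
Fold over input (y axis, log) against the local input level at the summit in fragments (x axis, log) for the 85 member peaks, by family, with exact 95% Poisson intervals as vertical lines. Plexin peaks reach the highest input levels, up to 38.0 with a fold of 1.88, while many semaphorin peaks sit at 0.246 or 0.296 with wide intervals.

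Of 14 Eph receptor genes, 4 held a peak (28.6%, beside 49.3% of all protein-coding genes), and the median of their highest folds was 8.20. EPHA2, the receptor of EFNA1 and the sole type A receptor with a peak, held 5 peaks, 4 of q under 0.05. The strongest, in exon 2 of 16 at chr1:16148234-16148949, had 74 RIP fragments over an input level of 5 and a fold of 8.08 (6.38 to 10.1, q 3.82e-26). Its start peak had a fold of 5.95 (3.68 to 9.23) on 17 fragments and shares its summit with the antisense gene EPHA2-AS1. Intron 2 had 5.58 (20 fragments) and the 3' UTR 4.35 (73 fragments), so peaks ran from the start to the end of the gene.

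EPHB2, a receptor that positions cells along the intestinal crypt, spans 211 kb and held 5 peaks, 2 of q under 0.05. The 3' UTR peak at chr1:22913575-22914589 had the highest fold of any Eph receptor, 10.7 (6.82 to 16.1), on 20 RIP fragments over an input level of 0.296. A promoter-labelled peak had 4.24 on 7 fragments, and 3 intron peaks had folds of 1.83 to 2.35 on 2 or 3 fragments. EPHB3 had its highest fold in exon 3 of 16, at chr3:184572729-184573556, with a fold of 8.32 (5.37 to 12.4) on 21 fragments over 0.740. Its 3' UTR had 5.06 on 39 fragments, and its start peak, 2.82 on 16, had a q of 0.105. EPHB6, which lacks kinase activity, had its strongest peak at chr7:142864229-142864551, labelled promoter, with a fold of 4.58 (3.10 to 6.55) on 27 fragments over 3. The other EPHB6 peak, 3.10 on 5 fragments, did not pass q under 0.05.

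No peak was found in EPHA1, EPHA3, EPHA4, EPHA5, EPHA6, EPHA7, EPHA8, EPHA10, EPHB1 and EPHB4. With the 2 ephrins, 2 plexins and 7 semaphorins named above they make 21 members without a peak. Long genes were common among them: their median span was 120 kb, against 31.1 kb for the 30 members with a peak, and 11 of the 21 spanned over 100 kb. In the class of longest genes, 152 to 2474 kb, 8 of 17 members held a peak, whereas 69.2% of all genes of that class did. Whether these genes were transcribed in the cells was not tested, since gene-level input counts were not used here.

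**Figure D4:**
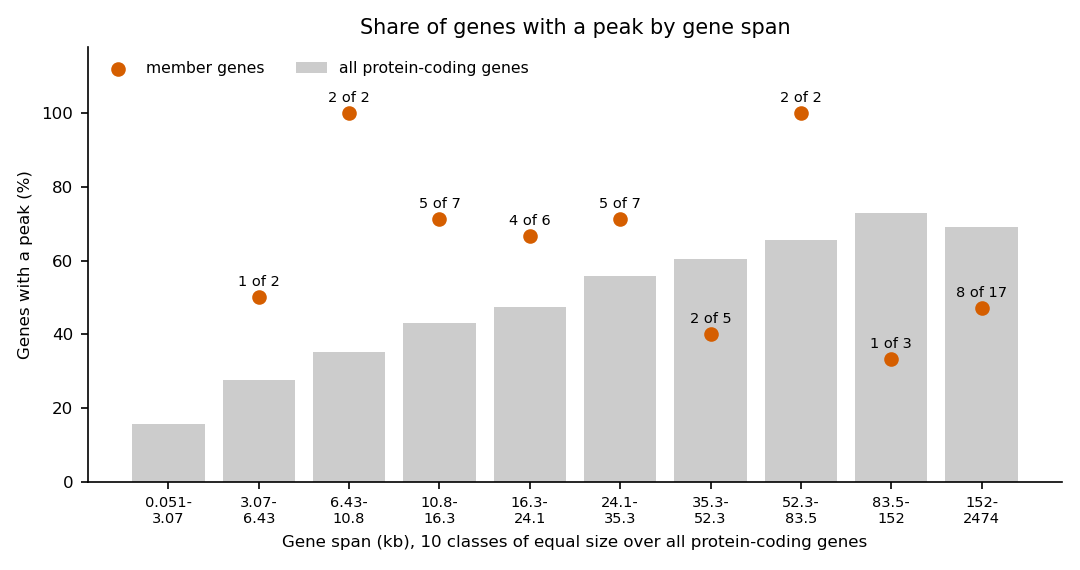
Share of protein-coding genes with a peak (grey bars, percent) in 10 classes of gene span (x axis, kb), with the members of each class as points and their counts. The grey bars go from 15.7% in the shortest class to 73.0% in the ninth, while among members the 17 longest genes hold a peak in 8.

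Many member summits lay in the last 10% of the gene's span, counted from the 5′ end. Of 84 peaks in genes of known strand, 39 had the summit in the last 10% of the span (46.4%, 36.2 to 57.0), against 21.7% of 30991 gene and peak pairs over all protein-coding genes. At q under 0.05 it was 27 of 54 (50%, 37.1 to 62.9), against 28.6%. The first 10% held 10 (11.9%, against 10.2%). Counted by gene, 25 of 29 members with a peak and a known strand had a summit in the last 10% (86.2%, 69.4 to 94.5), against 49.9% of 9500 such protein-coding genes. A summit in the first 10% was held by 9 (31.0%, against 25.3%) and both by 8 (27.6%, against 12.3%). These counts by gene take peaks of any q. In EFNA2, PLXNA3, PLXNC1, SEMA3E, SEMA4A, SEMA6D and SEMA7A, no peak in the last 10% had q under 0.05. In long genes the last 10% reaches far from the end: the SEMA6D summit, on 4 fragments, lay 44024 bases from it. The backgrounds were not matched for span. Intervals on shares of peaks treat peaks of the same gene as independent, so they are likely too narrow. Semaphorins stood highest, with 19 of 31 peaks in the last 10%, or 11 of 14 at q under 0.05. Plexins had 12 of 27, ephrins 5 of 11 and Eph receptors 3 of 15. Without SEMA3A, the share over all members was 31 of 70 (44.3%).

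**Figure D5:**
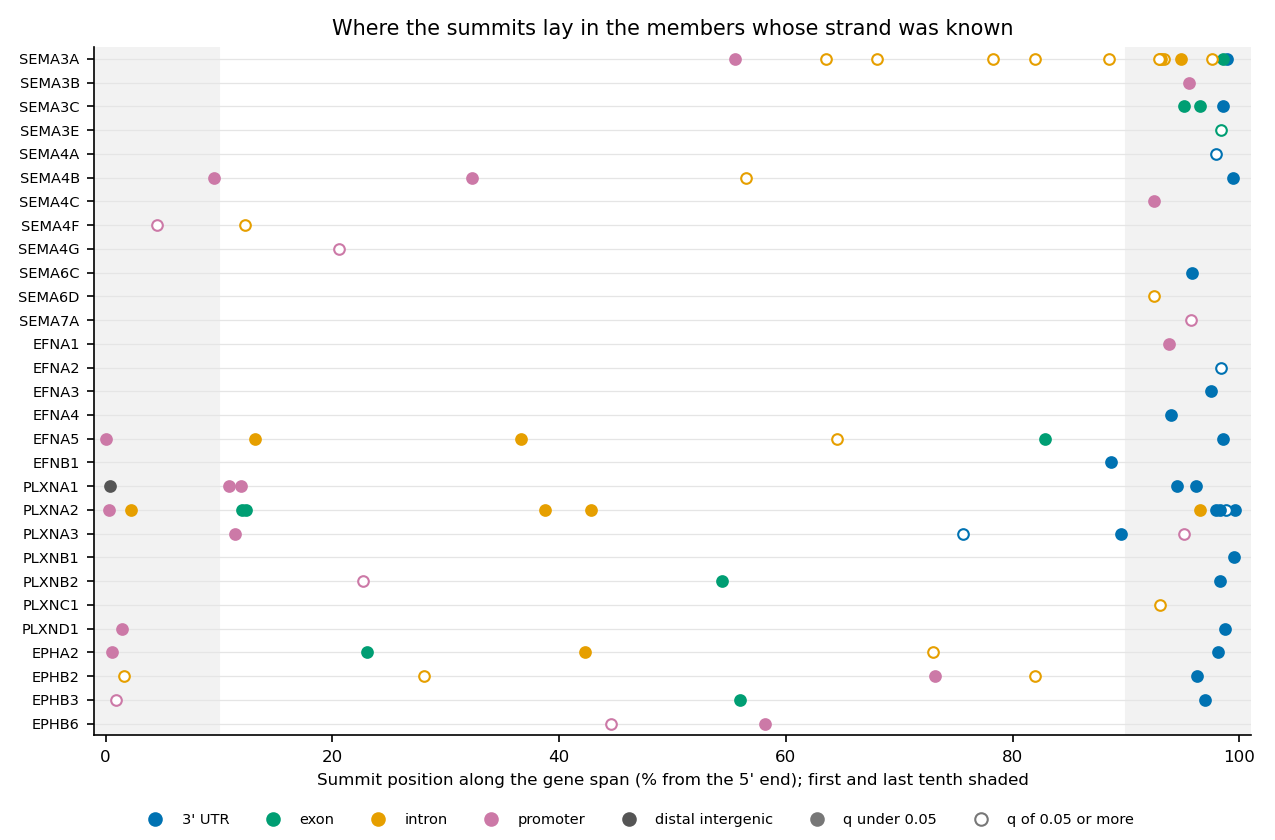
Position of each member summit along its gene (x axis, percent of the span from the 5′ end), one row a gene with a known strand, coloured by the deposited region label and filled for q under 0.05; the first and last 10% are shaded. Of 84 summits, 39 fall in the last 10%, and SEMA3A's 14 all lie at 55.5% of its span or further.

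By the deposited region labels, 28 member peaks were intronic (32.9%, 23.9 to 43.5), 24 lay in 3' UTRs (28.2%, 19.8 to 38.6), 22 carried a promoter label (25.9%, 17.8 to 36.1) and 10 lay in other exons (11.8%, 6.52 to 20.3). Over all peaks in protein-coding genes the shares were 44.4%, 18.8%, 15% and 18.1%. The members' intervals treat peaks of the same gene as independent here too. Without SEMA3A, 17 of 71 member peaks were intronic (23.9%). Of the 24 peaks in 3' UTRs, spread over 19 genes, 21 also lay in the last 10% of the span. A promoter label meant no more than a transcript start within 3 kb, whichever gene it belonged to. Of the 22 promoter-labelled peaks, 7 lay in the first 10% of their gene and 5 in the last 10%, and 6 were assigned by the deposited table to another gene.

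In the deposited table a peak carries the gene of the nearest transcript start, which for 26 of the 85 member peaks was another gene. For 9 members this took every peak away. The 3 peaks of SEMA3C, the one with a q of 6.59e-56 included, were assigned to CD36, the EFNA1 peak to SLC50A1, the SEMA3B peak to LSMEM2 and the SEMA4C peak to ANKRD39. EPHB2 lost 4 of its 5 peaks to the microRNA genes MIR4253 and MIR4684, and PLXNA2 lost 5 of 11 to LINC02767. Conversely, 30 peaks assigned to 14 members lay outside them, and 6 members without a peak of their own received such a peak. The EPHA8 peaks, the highest of fold 4.11, lay in ZBTB40, and 5 peaks assigned to PLXNA1, up to 6.64, lay in CHCHD6. A peak of fold 7.39 assigned to SEMA6C lay in GABPB2. With intergenic labels left out, nearest start assigned a peak to 26 members, against 30 by gene span.

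Ligands were set beside their best-known receptors in 22 pairs. Both genes held a peak in 8 pairs, 1 of the genes in 9 and neither in 5, where 49.3% of all protein-coding genes held one. At q under 0.05, where the share of all genes was 39.0%, both sides held a peak in 4 pairs, SEMA3A with PLXNA1, SEMA4C with PLXNB2, EFNA1 with EPHA2 and EFNB1 with EPHB2. In 11 pairs 1 side did, and in 7 neither did. The pair EFNB2 with EPHB4, known from arteries and veins, held no peak on either side, and SEMA7A with PLXNC1 held only peaks above q 0.05 on both sides. Several genes enter more than 1 pair, so the pairs are not independent, and the counts describe the pairs without showing that both sides carry peaks together more often than other genes.

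Coreceptors, effectors and processing enzymes of these pathways were taken from a list of 68 genes. Of these, 49 held a peak (72.1%), 44 at q under 0.05 (64.7%), beside the 49.3% and 39.0% of all protein-coding genes given above. The receptors themselves held a peak in 11 of 23 genes (47.8%). The partners are long genes, with a median span of 122 kb against 44.7 kb for the members and 24.1 kb over all protein-coding genes. In the span class around that median, 83.5 to 152 kb, 73.0% of all protein-coding genes held a peak. At q under 0.05 the share in that class was 59.0%. No background weighted to the partners' spans was computed, and the difference was not tested. Both neuropilin genes had their highest fold in the 3' UTR. NRP1, the coreceptor of SEMA3A, had a fold of 7.60 (6.56 to 8.76) on 188 RIP fragments, and NRP2 one of 6.22 (3.49 to 10.5) on 11. GTPases and their exchange factors held a peak in 10 of 16 genes, cytoskeletal effectors in 8 of 16, Eph receptor effectors in 25 of 28, and proteases and phosphatases in 4 of 6.

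Folds were highest in ANKS1A, an adaptor that binds Eph receptors (intron, 15.7), ROCK2, a kinase of the actin skeleton (3' UTR, 13.6), and ARHGEF11, an exchange factor bound by plexin B (intron, 13.1). RND3, an atypical small GTPase (exon, 11.2), SIPA1L1, a Rap1 regulator (promoter label, 10.6), and ADAM17, a sheddase (3' UTR, 9.23), followed. The 19 partners without a peak were the GTPase genes RHOA, RAC1, RRAS, RAP1B and RND2, the exchange factor genes TIAM1 and VAV3, the kinase genes CDK5, FYN, FES and LIMK1, the phosphatase genes ACP1, PTPN13 and PTPRO, and CFL1, DPYSL5, GIPC1, MICAL1 and SHC1. Within the GTPases, CDC42, RHOD, RND1, RND3, RRAS2 and RAP1A held a peak of q under 0.05.

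With any peak counted, the members' 58.8% lay between the shares of other adhesion and guidance families. The other guidance families (netrins, slits and their receptors) held a peak in 8 of 21 genes (38.1%, 20.8 to 59.1). Integrins, laminins and collagens did so in 39 of 86 (45.3%), and cadherins and protocadherins in 58 of 87 (66.7%), where clustered protocadherin genes share peaks. At q under 0.05 these families had 19.0%, 31.4% and 41.4% in the same order, and the members 41.2%. Their genes are longer, with median spans of 188, 89.3 and 115 kb against 44.7 kb for the members. The differences were not tested, and the intervals of the members and of the other guidance families overlap.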

How the data were processed

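The data are 1 m6A-RIP and 1 input library of HCCLM3 cells and the table of peaks called from them. The submitters' processing notes name HISAT2 as aligner, MACS2 as peak caller and the build hg38. Their versions and settings, and whether duplicates were removed, are not given in the sources used. The authors deposited the fold as a ratio, on a linear scale, of RIP over input at each summit. The authors deposited the p-value and q-value of each peak as −log10 values under damaged headers, and they were identified from the deposited score, which is 10 times the first of them rounded down. The lowest −log10 p in the deposited table was 1.30, and 39801 peaks were used, while 23 peak numbers were not used here.

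RIP fragments and the input level were recovered from the deposited fold and p-value, taking the fold as (scaled RIP fragments + 1) / (input level + 1) and the p-value from the Poisson distribution. At a scaling of 0.642 (RIP library 1.56 times the input), whole numbers fitted 100% of peaks to within 0.001 of their −log10 p. At that scaling, 98.2% of peaks allowed a lone whole number. A scaling that fits also fits when divided by a whole number, and the largest was taken. With a smaller one, the library ratio and fragment numbers would be larger and the intervals narrower. Of the 85 member peaks, 81 allowed a lone whole number. On 1989 simulated peaks, 100% were recovered. These were made with the same formula and scaling, so they check the calculation and cannot check the formula or the scaling. Total depth is not stated. Fragments carry no molecular identifiers, so intervals cover counting error only.

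Members were found by symbol in a RefSeq gene table (GRCh38.p14, which shares hg38's main chromosomes); 39467 peaks lay on these chromosomes, 30222 of them with the summit in a protein-coding gene. Strand came from RefSeq start windows or, without one, from the gene's strand in the deposited table, and was found for 17668 protein-coding genes and 47 members. The peak table has no strand, so genes that overlap on either strand cannot be told apart. All 51 members are named, those with a peak of q under 0.05 by the peak of highest fold, and of the partners the 6 of highest fold and each without a peak. Members, lists and comparisons were chosen with earlier results of these data known. No test was possible with 1 library a group. Alternatives changed the threshold, the depth, the assignment, the region labels, the background, the pseudocount or the peak standing for a gene. Python 3.11.15, numpy 2.4.6, scipy 1.17.1, pandas 2.3.3 and matplotlib 3.10.9 were used.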

Additional observations from a re-analysis of the deposited data

How the results depend on the processing

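The comparison with all protein-coding genes was not stable. The members' share with a peak was 9.51 percentage points above the background, but the difference was -0.0916 with only peaks of at least 10 RIP fragments and -1.73 among the 25 members within the members' quartiles of span, set against genes in that range. Over its 12 alternatives it ran from -1.73 to 9.70. Members with a peak numbered 30, but 18 at q under 1e-5 and 17 at a fold of at least 4; by the 8 other alternatives they were 20 to 30. The median highest fold, 4.49, was 6.07 at q under 1e-5 and 6.33 at a fold of at least 4. It was 7.74 with a pseudocount of 0.1 in place of 1, when all protein-coding genes had 7.70. The intron share, 32.9%, was 16.7% at q under 0.05, 19.4% at q under 1e-5 and 17.5% with at least 10 fragments. Over all peaks in protein-coding genes it fell too, from 44.4% to 27.1% at q under 0.05. Leaving out SEMA3A, an alternative chosen after seeing the data, gave 23.9% for the members. Pathway partners with a peak numbered 49, and 33 to 50 over 9 alternatives. With the peak of lowest p in place of the highest fold, PLXNA2 stood at 6.04 and SEMA4B at 6.30, and the other 28 members kept their value within its interval. With at least 10 fragments, 10 of the 30 members had no peak left (EFNA2, EFNA3, PLXNC1, SEMA3E, SEMA4A, SEMA4F, SEMA6A, SEMA6C, SEMA6D and SEMA7A). With summits in no other gene, EFNA3, EFNA4, PLXNC1, SEMA6A and SEMA6D had none. No paired analysis was possible because each group holds 1 library. The lowest input level was 0.246 fragments, where the pseudocount holds the fold down most, and a gene with little RNA may lack a peak at this depth.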

Other observations

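Exon peaks outside UTRs lay near opposite ends of receptor and semaphorin transcripts, a pattern noticed after the values were seen and not tested. In the receptors all 5 were in exon 2 or 3, namely EPHA2 exon 2 of 16, EPHB3 exon 3 of 16, PLXNA2 exon 2 of 32 (2 peaks) and PLXNB2 exon 3 of 37. In the semaphorins all 4 were in the last 3 exons, namely SEMA3A exon 16 of 17, SEMA3C exons 17 and 18 of 19 and SEMA3E exon 17 of 17, the last on 3 fragments with a q of 1. The sole ephrin peak of this kind was in exon 2 of 5 of EFNA5, and 1 peak cannot show whether the semaphorin pattern extends to the ephrins. Among all 3794 exon peaks of coding transcripts with at least 10 exons, 11.3% were in exon 2 or 3 and 20.8% in the last 3 exons. The 9 semaphorin and receptor peaks come from 7 genes, and peaks of 1 gene are not independent.

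Of the peaks assigned to members by nearest start that lay elsewhere, 2 were assigned to EPHB6 on an alternative contig of chromosome 7, with folds of 5.95 (3.68 to 9.23, 17 fragments) and 3.11 (13 fragments). On the main chromosome EPHB6 had folds of 4.58 and 3.10. PLXNB3, which held no peak of its own, was assigned 3 peaks that lay within its antisense gene PLXNB3-AS1, of folds 4.92 (3.20 to 7.28), 2.93 and 2.92. SEMA3D was assigned a peak of fold 3.38 on 5 fragments, upstream of its start.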
